A study of Mus musculus with 8 samples.

Results

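The family of miR-130 and miR-301 consists of microRNAs (miRNAs) that share the seed, the stretch at the 5′ end that pairs with target messages. Its members on the array were mmu-miR-130a, mmu-miR-130b, mmu-miR-301a and mmu-miR-301b (written here without the species prefix), taken by the exact name that the array gives them, 4 of 611 mouse miRNAs. Lung RNA came from female C57BL/6 dams. The exposed dams were given Printex 90, a carbon black sold as nanoparticles, by intratracheal instillation: 4 doses of 0.067 mg each, on days 7 and 10 and again on days 15 and 18 of gestation, 0.268 mg in all. The control dams received nanopure water, the vehicle. Lungs were taken at weaning, 26 to 27 days after exposure, and each group had 4 one-colour arrays. The RNA was that of lung tissue with no vessels isolated, so the values cannot be assigned to vessel cells, and in such bulk RNA fewer cells of a type and less miRNA per cell cannot be told apart.

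A miRNA guides the silencing complex to messages that carry a match to its seed, and miRNAs with the same seed share most of their predicted targets. In rodent and human pulmonary hypertension this family is known as a regulator of vessel wall remodelling. It represses PPARγ, a nuclear receptor that restrains proliferation of smooth muscle and endothelial cells. In human endothelial cells miR-130a represses the homeobox genes GAX and HOXA5, which oppose vessel growth.

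RefSeq (build GRCm38.p6) gave a mature sequence for 3 of the 4 members, under their current names with the suffix -3p. They are shown with the seed, bases 2 to 8 from the 5′ end, in capitals, because the seed is what defines the family and the lower case part is what sets the members apart. miR-721, the other array miRNA with this seed in RefSeq, is shown beside them.
miR-130a-3p: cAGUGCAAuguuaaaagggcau
miR-130b-3p: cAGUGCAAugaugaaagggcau
miR-301a-3p: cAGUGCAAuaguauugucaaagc
miR-721: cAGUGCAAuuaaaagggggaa
miR-130a-3p and miR-130b-3p share their first 10 bases and differ at 2 of 22 positions (U11A and A13G, counted from the 5′ end with the base of miR-130a-3p first). miR-301a-3p shares the first 9 bases with miR-130a-3p and differs at 10 of 22 positions. miR-130a-3p lies at chr2:84741116-84741137 on the minus strand. miR-301a-3p lies at chr11:87113054-87113076 on the plus strand, within the span of the gene Ska2. miR-130b-3p lies at chr16:17124071-17124092 on the minus strand, and the hairpin of miR-301b lies on the same strand, 257 bases from that of miR-130b. Both hairpins lie within the span of the gene 2610318N02Rik.

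The family members were measured at different depths above background. miR-130a and miR-301a were detected on all 8 arrays, miR-130b on 4 and miR-301b on none. Detection required that 50% or more of the kept spots of 1 probe stood well above background. Signals are given relative to the array's 75th percentile, which ran from 580.8 to 804.7 intensity units, and errors are SDs over 4 arrays per group. Levels of different miRNAs are not compared, since each has its own probes. Whether the arrays hold separate mice is not stated in the labels, so p-values measure the spread between these arrays. The slide and the scan were common to all 8 arrays. Printex 90 arrays filled slide row 2 and controls row 1, which makes group and row inseparable. None of the 268 tested miRNAs passed an adjusted p of 0.05 (limma, 0% called, with 15 at an unadjusted p under 0.05). Of the 4 members 3 were tested, and 0 of these 3 passed either threshold, the unadjusted one being passed by 5.6% of all tested miRNAs. Signals below 0.0388 were raised to that value, the floor, before the fit. miR-130b lay above it on 3 arrays alone, so its fitted difference was held near 0 and its lack of a call says little. Groups that did not overlap were found for 0 of the 3 tested members, against 2.24% of all tested.

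**Figure D1:**
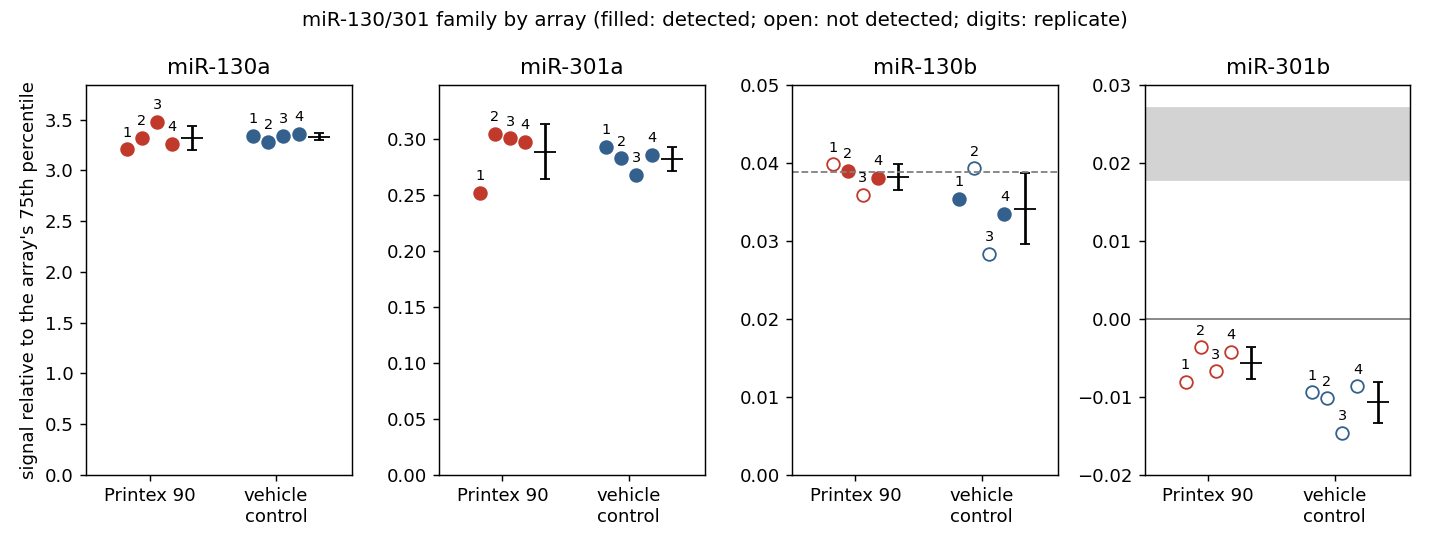
Signal relative to the array's 75th percentile (y axis) on the 4 Printex 90 and 4 vehicle control arrays for each member, with the mean and SD (n = 4) in black. Filled points were detected and open points were not, the dashed line is the floor of 0.0388, and the grey band spans the lowest detected signal of each array, 0.0178 to 0.0271. The groups overlap for miR-130a, miR-301a and miR-130b, and all miR-301b signals lie below 0.

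miR-130a showed no difference between exposed and control lungs beyond a narrow error. Its relative signal was 3.21, 3.32, 3.48 and 3.26 on Printex 90 arrays 1 to 4, against 3.34, 3.28, 3.34 and 3.36 on control arrays 1 to 4. The highest and the lowest array both belonged to the Printex 90 group, and the control values lay between them. The relative signal averaged 3.32 ± 0.118 after Printex 90 and 3.33 ± 0.0352 in controls (n = 4 each). The ratio fitted on the log2 scale was 0.996 (95% interval 0.948 to 1.05, limma adjusted p = 0.934). Arrays in the same slide column differed by -0.06, 0.02, 0.06 and -0.04 log2 units (Printex 90 minus control, columns 1 to 4).

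The probes behind the miR-130a signal were bright and repeatable. Each of its 2 probes had 8 to 10 kept spots per array. Their mean signals ran from 919.2 to 1229.4 intensity units for the dimmer and from 1098.6 to 1478.0 for the brighter probe, and every kept spot was well above background. Spots of a probe varied within an array by 1.90% to 8.26% of their mean. The log2 differences between Printex 90 and control arrays were -0.02 (SE 0.0271) and 0.01 (SE 0.0276) for the 2 probes, of opposite sign and each smaller than its SE.

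miR-130a also varied little from array to array. Its SD over the 8 arrays was 0.035 log2 units, where the median of the 240 miRNAs detected on all arrays was 0.129, and 2 of those miRNAs had a smaller SD. Of these, miR-1198 had a mean log2 relative signal of -4.676, beside the floor of -4.69. The ranking took no account of signal level. For miR-130a the highest array was 1.09 times the lowest, against a median of 1.31 times. This rank depended on the processing. In the authors' deposited value table, on a log2 scale, its SD was 0.059 against a median of 0.072, and 72 miRNAs had a smaller SD. With the 75th percentile taken over all mouse miRNAs it was 0.115 against 0.132, with 70 smaller. The order of the arrays changed too. Printex 90 replicate 3 had the highest relative signal, and in the authors' deposited value table it shared the lowest log2 value of 10.03 with control replicate 1. That array had the lowest 75th percentile of all, 580.8 intensity units, and its part in this change of order was not tested.

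**Figure D2:**
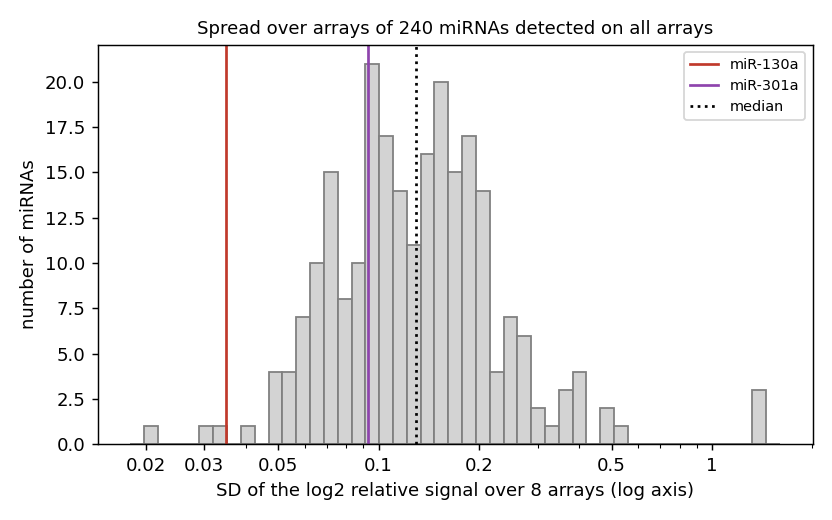
Number of miRNAs (y axis) by the SD of their log2 relative signal over the 8 arrays (x axis, log scale), for the 240 miRNAs detected on all arrays. The red line at 0.035 is miR-130a, the purple line at 0.093 is miR-301a and the dotted line is the median of 0.129.

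miR-301a, which in human cells is known to activate NF-kB by repressing its inhibitor NKRF, had a group difference smaller than its array-to-array spread. Its relative signal was 0.252, 0.305, 0.301 and 0.298 on Printex 90 arrays 1 to 4, against 0.293, 0.283, 0.268 and 0.286 on control arrays 1 to 4. Printex 90 array 1 was the lowest of all 8, and the other Printex 90 arrays lay above every control array. The relative signal averaged 0.289 ± 0.0247 after Printex 90 and 0.282 ± 0.0106 in controls (n = 4 each). The log2 difference was 0.03 (SE 0.067, 95% interval -0.13 to 0.19, limma adjusted p = 0.889), a ratio of 1.02 (0.915 to 1.14), and the exact permutation p was 0.657, 2-sided.

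Single arrays moved this small value in both directions. Without Printex 90 replicate 1 the log2 difference of miR-301a was 0.09 (limma adjusted p = 0.655). It was 0.003 without Printex 90 replicate 2, 0.01 without Printex 90 replicate 3, 0.014 without Printex 90 replicate 4 and 0.005 without control replicate 3, and 0.048 without control replicate 1. Within slide columns 1 to 4 the log2 differences were -0.22, 0.11, 0.17 and 0.06, and column 1 holds Printex 90 replicate 1. That array had the highest summed relative signal of the striated muscle markers (miR-1, miR-133a, miR-133b and miR-206), 3.05, where the other Printex 90 arrays had 0.313 to 0.441 and the controls 0.38 to 1.91. It also had the highest sum of the smooth muscle markers (miR-143, miR-145 and miR-145*), 3.29, where the other Printex 90 arrays had 2.04 to 2.51 and the controls 2.20 to 2.83. The part of these markers in the low miR-301a value was not tested.

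Each of the 2 probes for miR-301a gave 9 or 10 kept spots per array, all well above background. The log2 differences were 0.05 (SE 0.0721) for the brighter probe and -0.01 (SE 0.0651) for the dimmer one. Both lay within the error.

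Whether miR-301a and miR-130a changed unequally was tested on their ratio within each array, from which the scaling cancels. Centred on its mean over the 8 arrays, the log2 ratio of miR-301a to miR-130a was -0.13, 0.10, 0.01 and 0.09 on Printex 90 arrays 1 to 4, against 0.03, 0.01, -0.10 and -0.01 on control arrays 1 to 4. The values of the groups overlapped, and Printex 90 array 1 was again the lowest. The difference between groups was 0.04 log2 units (exact permutation p = 0.571, 2-sided, the 1 pair compared). Without Printex 90 replicate 1 it was 0.08 (exact permutation p = 0.114). It was 0.01 without Printex 90 replicate 2, 0.013 without Printex 90 replicate 4 and 0.011 without control replicate 3 (exact permutation p = 0.914 for each).

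miR-130b, which is encoded near miR-301b, was at the edge of detection in both groups. Its relative signal was 0.0398, 0.0390, 0.0359 and 0.0381 on Printex 90 arrays 1 to 4, against 0.0354, 0.0393, 0.0283 and 0.0335 on control arrays 1 to 4. The groups overlapped, with 1 control array above all but 1 of the Printex 90 arrays. The mean was 0.0382 ± 0.00167 after Printex 90 and 0.0341 ± 0.00458 in controls (n = 4 each), a ratio of means of 1.12 (exact permutation p = 0.143, 2-sided, without a floor). In the limma fit signals were floored at 0.0388 before log2, and 3 arrays lay above that floor. The fitted log2 difference of 0.01 (95% interval -0.04 to 0.05, limma adjusted p = 0.918) was therefore held near 0 by the floor. With the floor halved it was 0.17 (limma adjusted p = 0.778).

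miR-130b was detected on 2 arrays of each group, the brighter ones. It was detected on Printex 90 arrays 2 and 4 and on control arrays 1 and 4. These 4 arrays had a 75th percentile signal of 692.6 to 804.7 intensity units, and the 4 arrays without detection had 580.8 to 635.2. On the brighter of its 2 probes, 4 of 10, 10 of 10, 2 of 10 and 9 of 9 spots were well above background on Printex 90 arrays 1 to 4, against 7 of 9, 3 of 9, 0 of 10 and 9 of 9 on control arrays 1 to 4. The dimmer probe reached 50% on none. Of 11 mouse miRNAs detected on exactly 4 arrays, 2 were detected on these 4 arrays, miR-130b included. The part of array brightness in detection was not tested.

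**Figure D3:**
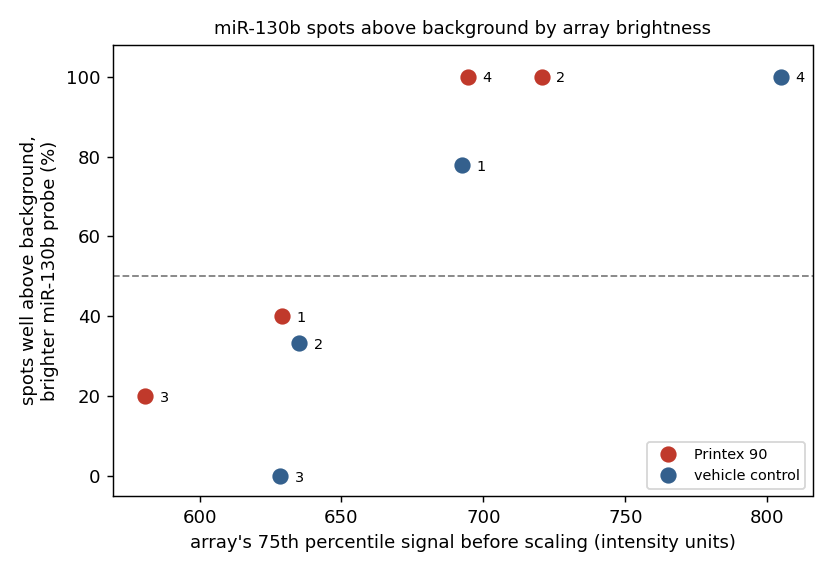
Percent of spots well above background for the brighter miR-130b probe (y axis) against the array's 75th percentile signal before scaling in intensity units (x axis), 1 point per array with its replicate number. The dashed line is the 50% needed for detection, and the 4 arrays above it all had 692.6 units or more.

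miR-301b was not detected in either group. Its summed signal after background subtraction was -5.09, -2.63, -3.92 and -2.93 intensity units on Printex 90 arrays 1 to 4, against -6.53, -6.45, -9.15 and -6.98 on control arrays 1 to 4. All of these are below 0, so they give no level and no fold. Relative to the 75th percentile the mean was -0.00568 ± 0.00209 after Printex 90 and -0.0107 ± 0.00264 in controls. All Printex 90 values were closer to 0 than all control values (2-sided exact permutation p = 0.0286, the lowest value possible with these group sizes). This test was not planned for a member without detection, and it compares background signals, not levels of miR-301b. Of the 318 mouse miRNAs detected on no array, 6 (1.89%) had all Printex 90 signals above all control signals and 1 (0.314%) had all below. Slide row, group and chance cannot be told apart for such separations of background signals. The probes of miR-301b did not share a direction. A probe averaged a relative signal of -0.00194 after Printex 90 and -0.00176 in controls, and the other probes averaged higher after Printex 90. A detected miRNA had a relative signal of at least 0.0178 to 0.0271, depending on the array.

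miR-130b*, the passenger strand of miR-130b and the only passenger strand of the family on the array, was detected on no array. Its relative signal was 0.0102 to 0.0224 after Printex 90 and 0.0103 to 0.02 in controls. miR-721, with the same seed, was also detected on no array, and its relative signal stayed at or below 0.00763 after Printex 90 and 0.0169 in controls. Neither had signals that separated the groups.

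The miRNAs whose array-to-array pattern was most like a member's were found by the SD over 8 arrays of the within-array log2 ratio, where a smaller SD means a closer match. For miR-130a these were miR-28 (0.028), miR-107 (0.031) and miR-22 (0.032), against a median of 0.124 over 238 miRNAs. For miR-301a they were miR-148b (0.038), miR-32 (0.062) and miR-15a (0.063), against a median of 0.153. miR-148b measured 0.131, 0.155, 0.152 and 0.148 on Printex 90 arrays 1 to 4, against 0.144, 0.148, 0.142 and 0.145 on control arrays 1 to 4. It had its lowest value on Printex 90 array 1, as miR-301a did, and so had miR-32 (0.0916) and miR-15a (3.34). All were chosen for a pattern like that of miR-301a, so the shared low array follows from the choice. Arrays share brightness and scaling, and this measure favours miRNAs that vary little.

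Other miRNAs linked to lung vessels or pulmonary hypertension gave no call either. Of a list of 20, 19 were tested and 0 passed an adjusted p of 0.05 (limma, 0% called over all tested), with 1 higher and 0 lower at an unadjusted p under 0.05, against 5.6% of all tested miRNAs in either direction. Of the 19, 4 had a positive log2 difference and 15 a negative one, with a median of -0.08. Over all 268 tested miRNAs 85 (31.7%) were positive and 176 negative, with a median of -0.05. Groups that did not overlap were found for 1 of the 19, against 2.24% of all tested. The untested miRNA was miR-124.

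The highest differences in this list were those of miR-21, miR-223 and miR-210. miR-21, induced in injured tissue, measured 15.5 to 19.3 after Printex 90 and 11.8 to 13.7 in controls, with no overlap (log2 difference 0.49, SE 0.086, limma adjusted p = 0.203). It passed with normexp background correction (limma adjusted p = 0.0119) and without Printex 90 replicate 3 (limma adjusted p = 0.0169). It passed under no other setting tried, quantile normalization and the authors' deposited value table included. miR-223, a miRNA of myeloid cells, measured 1.70 to 3.21 after Printex 90 and 1.58 to 2.21 in controls (log2 difference 0.18, SE 0.21). miR-210, induced by hypoxia, measured 0.0925 to 0.108 after Printex 90 and 0.0862 to 0.109 in controls (log2 difference 0.05, SE 0.084). The groups overlapped for the last 2.

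The lowest differences were those of miR-206, miR-503 and miR-126-5p, and the groups overlapped for each of them. miR-206 of skeletal muscle measured 0.0335 to 0.0526 after Printex 90 and 0.0489 to 0.0648 in controls (log2 difference -0.30, SE 0.13). It was detected on 7 arrays, and its lowest Printex 90 signal was raised to the floor of 0.0388 in that fit. miR-503, encoded in a cluster with miR-322, measured 0.0596 to 0.091 after Printex 90 and 0.0723 to 0.0981 in controls (-0.29, SE 0.16). Its cluster partner miR-322 differed by -0.12 (SE 0.095). miR-126-5p of endothelial cells measured 0.492 to 0.702 after Printex 90 and 0.600 to 0.698 in controls (-0.20, SE 0.11). The limma adjusted p was 0.706 for miR-206, miR-503 and miR-126-5p and 0.767 for miR-322.

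**Figure D4:**
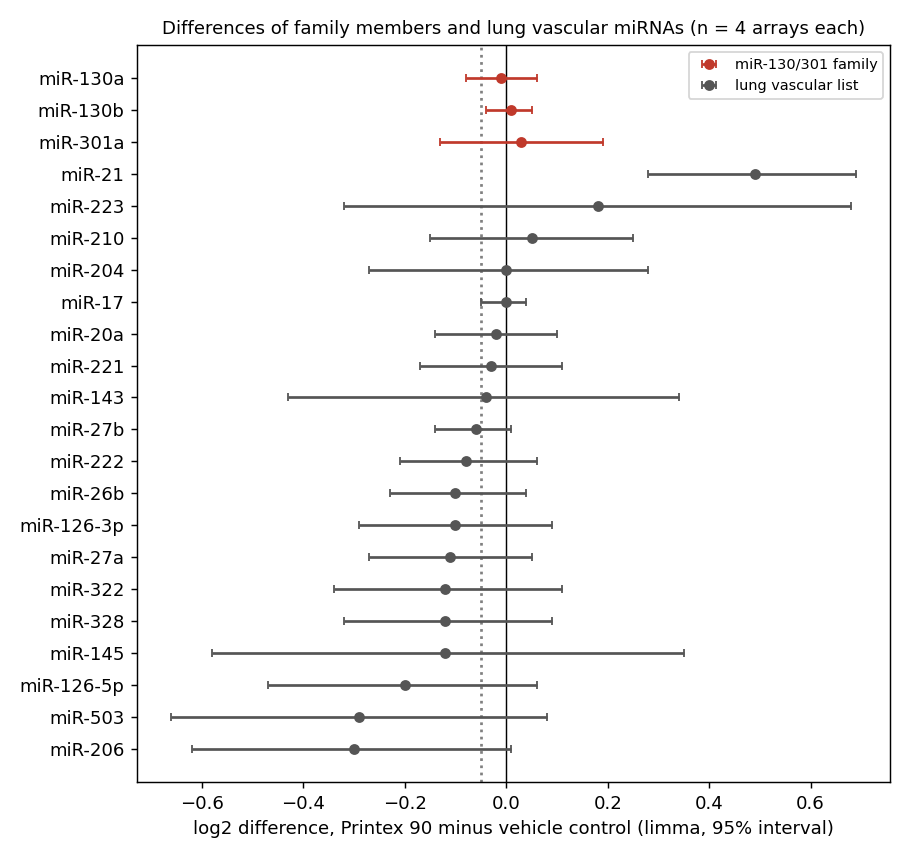
Log2 difference (x axis, Printex 90 minus vehicle control) with its 95% interval from limma for the 3 tested family members in red and 19 miRNAs of the lung vascular list in grey, n = 4 arrays per group. The dotted line marks the median of all tested miRNAs at -0.05, and miR-21 is the 1 miRNA shown whose interval does not include 0. The floor of 0.0388 held the differences of miR-130b and miR-17 near 0 and made their intervals narrow.

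Marker sums of the lung's cell types overlapped between the groups, though the members of some lists shared a direction. The summed relative signal of the 2 endothelial miR-126 strands was 34.4 to 42.3 after Printex 90 and 37.3 to 43.0 in controls. Nearly all of this sum was miR-126-3p, at 33.9 to 41.7 after Printex 90 and 36.7 to 42.3 in controls. The epithelial miR-200 family summed to 7.65 to 9.14 after Printex 90 and 7.32 to 8.17 in controls, and all 5 of its members were detected on all arrays. All 5 had a positive log2 difference (median 0.06), where 31.7% of all tested miRNAs were positive. The tested endothelial, smooth muscle, red blood cell and striated muscle markers were all negative, as were 176 of all 268 tested miRNAs. The mesenchymal and leukocyte markers went both ways. No marker had an unadjusted limma p under 0.05. The 3 mesenchymal markers summed to 4.35 to 4.76 and 4.39 to 4.96, the 5 leukocyte markers to 7.43 to 8.85 and 7.07 to 9.04, and the 3 red blood cell markers to 21.7 to 30.6 and 19.7 to 46.9, in each case with Printex 90 first and controls second. The red blood cell sum was mostly miR-451, which averaged 24 after Printex 90 and 28.5 in controls.

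The signs of the differences of miR-130a and miR-301a depended on the processing. For miR-130a the log2 difference was -0.08 when arrays were left unscaled and 0.08 after quantile normalization (limma adjusted p = 0.376), its extremes, and for miR-301a it was -0.04 and 0.10 under the same settings. The median of all tested miRNAs was -0.12 without scaling and -0.01 with quantile normalization. No member passed an adjusted p of 0.05 under any setting. The unadjusted limma p, from the fit across all tested miRNAs, was under 0.05 for miR-130a with quantile normalization and for miR-301a without Printex 90 replicate 1.

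**Figure D5:**
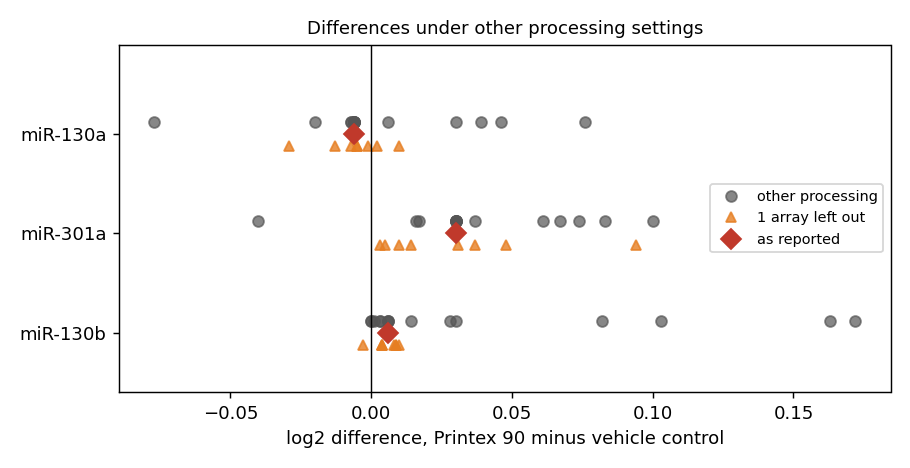
Log2 difference (x axis, Printex 90 minus vehicle control) of the 3 tested members as reported (red), under other processing (grey) and with 1 array left out (orange). The values of miR-130a lie between -0.08 and 0.08 and fall on both sides of 0.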

How the data were processed

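Per the labels' protocols, small-RNA-enriched total RNA was labelled with Cy3 using Agilent's miRNA kit. Per the file headers, Agilent Feature Extraction 10.7.3.1 (grid design 021828) made the intensity values per spot, background-subtracted within each array and not normalized between arrays. The authors also deposited a table of log2 values, used as an alternative, whose processing the labels do not state. It correlated at 1 with quantile-normalized log2 median spot signals, and its column medians were 5.41 to 5.43.

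Control and outlier-flagged spots (2.25% to 2.76%) were left out; no spot was saturated. Spots were averaged per probe and probes summed per miRNA. Arrays were divided by their 75th percentile over 240 mouse miRNAs (those on every array's detected list), floored at 0.0388 (5th percentile of detected signals) and logged. Mouse miRNAs detected on 4 or more arrays (268) were fitted with limma 3.58.1 (R 4.3.3), 2-sided, Benjamini-Hochberg over all; single values used exact permutation over 70 assignments (SciPy 1.17.1). limma was tested on simulated data with independent noise and planted differences larger than those of the members. That test does not bear on differences as small as theirs. Members, lists and the rule for named miRNAs (members, passenger strands, same seed, 3 closest patterns, 3 highest and lowest of the vascular list) were chosen with earlier results of these data known. Alternatives covered scaling, background, probe summary, floor, filter, spread model and single arrays. The number of arrays limits precision.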

Additional observations from a re-analysis of the deposited data

Results flagged for a closer look

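miR-301a on Printex 90 replicate 1 stood apart from its group. Its log2 relative signal was -1.99, the next lowest Printex 90 array had -1.75, and this gap took up 0.874 of the range of the group, above Dixon's 95% limit for 4 arrays. Of 32 groups of 4 arrays compared in this way 1 exceeded its limit, where chance, which does so in about 1 of 20 groups, gives 1.6. The cause was not tested.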

How the results depend on the processing

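The miRNAs that passed the threshold numbered 0 as reported and 3 with normexp background correction, and 0 to 3 with 1 array left out. The 3 were miR-21, miR-146b and miR-135b, with normexp and without Printex 90 replicate 3, and were named after their values were seen. The log2 difference of miR-130a had the opposite sign with the percentile over all mouse miRNAs (0.046), quantile normalization (0.076), normexp (0.039), outlier spots kept (0.006) and the authors' deposited value table (0.03), and ran from -0.029 to 0.01 with 1 array left out. That of miR-130b ran from -0.003 to 0.01 with 1 array left out, and without a floor, a setting chosen after seeing the data, the log2 ratio of means was 0.16. It has no value when detection on all 8 arrays is required. That of miR-301a was -0.04 without scaling and 0.003 to 0.09 with 1 array left out. miR-301b, at the floor as reported, differed by 0.11 with normexp and 0.034 in the authors' deposited value table. The log2 ratio of miR-301a to miR-130a differed by 0.023 to 0.037 under other processing, where scaling, floor and the replicate block cannot move it, and by 0.01 to 0.084 with 1 array left out. At an unadjusted limma p, miR-130a had 0.0364 with quantile normalization and miR-301a 0.0385 without Printex 90 replicate 1. The cause of these changes was not tested. The files hold no mean spot signal, so normexp used the median signal. Replicate numbers equal slide columns. Deviations of same-numbered arrays from their group means correlated at -0.14, -0.60, -0.38 and 0.75 for replicates 1 to 4. The highest correlations with a control array of another number were 0.72, 0.69, 0.43 and 0.13. Same-numbered arrays thus correlated best for replicate 4 alone, and whether the numbers pair the arrays is not settled. With the replicate block 0 miRNAs passed. The differences were then -0.006 for miR-130a, 0.006 for miR-130b, 0.03 for miR-301a and 0.04 for the ratio. Signal over background limits miR-130b and miR-301b.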
